A study of Mus musculus with 11 samples.

Results

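The Notch receptors and their ligands were examined as 9 named genes, 4 receptors (Notch1, Notch2, Notch3 and Notch4) and 5 ligands (Dll1, Dll3, Dll4, Jag1 and Jag2), out of 21887 protein-coding genes of the mouse. The genes were taken by name, and for each one every peak over the gene span with 50 kb on both sides was collected from the peak lists of 6 libraries. The libraries come from CUT&RUN, in which an antibody tethers a nuclease that releases the DNA around a bound protein. The antibody was directed at the Myc tag of RARα, retinoic acid receptor alpha, in cortical cells of mouse embryos at E14 that had been enriched with Prom1 beads, Prom1 being a membrane protein that marks neural stem cells. There were 3 libraries from control embryos and 3 from Foxc1 mutant embryos. All 6 carry the same antibody label, which does not by itself show that the tagged receptor was present in each of them. The Foxc1 allele, the promoter or cell type that drives the tagged receptor, the strain and the number of embryos per library are not stated in the labels. The 5 isotype antibody libraries were not analysed here, and the values have no isotype background beside them.

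Notch signalling passes between touching cells. A ligand of the Delta-like or Jagged family on one cell binds a receptor on its neighbour, proteases cut the receptor, and its intracellular part enters the nucleus and joins Rbpj and a Mastermind protein to switch on Hes and Hey genes. In the embryonic cortex this pathway is known for keeping radial glia, the neural stem cells, from turning into neurons. The meninges make retinoic acid, and their normal formation needs Foxc1, a transcription factor. The title of the series names a suppression of Notch and Sox2 by meningeal retinoic acid. RARα binds DNA together with a retinoid X receptor, classically at pairs of a short half-site in direct repeat.

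The lists differ widely in length within each genotype. Control replicates 1 to 3 hold 86446, 11869 and 30273 peaks, and mutant replicates 1 to 3 hold 54112, 410562 and 513290, so that 100 kb carry between 0.446 and 19.29 peaks on average. Peak height is counted in steps, the smallest signal unit of each library, and its worth varies between libraries, so heights are read only as ranks within a list. Control replicates 2 and 3 stand apart with a median height of 2 steps and median widths of 304 and 260 bp, and control replicate 1 with 10 steps and 2326 bp, while the mutant lists have medians of 4 steps and 679 to 737 bp. Peak lists do not measure RNA, so the labelled cell type could not be checked by expression. Of 12 genes known to mark progenitors, neurons or meninges, 12, 2 and 8 had a peak in their windows in control replicates 1 to 3 and 12 in each mutant library. The shares over all gene windows were 93.8%, 41.4% and 72.8% in the controls and 89.2%, 97.2% and 96.9% in the mutants. Such counts do not tell the cell type. The window of Foxc1, the mutated gene, held 5, 0 and 2 peaks in the controls and 2, 12 and 17 in the mutants, and that of Rara held 7, 1 and 1 against 5, 19 and 21. A mutation is not read from such counts. The labels do not say whether replicates are separate embryos, so a p-value measures the spread between these libraries only.

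Peaks at the start of the genes came from the 2 longest lists alone. The promoter was taken as the 250 bases before and the 50 bases after a RefSeq start site. No promoter of the 9 genes held a peak in any control library or in mutant replicate 1. Notch1 held one in mutant replicate 2, and Notch2, Dll1 and Dll3 held one in mutant replicate 3, while those of Notch3, Notch4, Dll4, Jag1 and Jag2 held none in any list. The promoters of 17492 genes give the background: 15.3%, 0.24% and 0.366% held a peak in control replicates 1 to 3, and 2.29%, 16.1% and 35.3% in mutant replicates 1 to 3. Set beside these shares, 1 of 9 in mutant replicate 2 and 3 of 9 in mutant replicate 3 lie near the background.

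The promoters of Notch1, Notch2 and Dll3 are shown because a peak lies on them, and a stretch of Dll1 follows. All sequences are from RefSeq with the build GRCm38.p6 and are written 5′ to 3′ on the strand of the gene. Those of Notch1, Notch2 and Dll3 end with the base before the start site, and their capitals mark the bases under the peak. For Notch1 the sequence is the minus strand of chr2:26503823-26504072, and 230 of its 250 bases lie under the peak of mutant replicate 2 at chr2:26503843-26504588, which is 5 steps high. For Notch2 it is the plus strand of chr3:98013288-98013537, with 222 bases under a peak of mutant replicate 3 at chr3:98013316-98013648 that is 7 steps high and crosses the start site. For Dll3 it is the minus strand of chr7:28301786-28302035, with 197 bases under a peak of mutant replicate 3 at chr7:28301839-28302227 that is 5 steps high.
Notch1: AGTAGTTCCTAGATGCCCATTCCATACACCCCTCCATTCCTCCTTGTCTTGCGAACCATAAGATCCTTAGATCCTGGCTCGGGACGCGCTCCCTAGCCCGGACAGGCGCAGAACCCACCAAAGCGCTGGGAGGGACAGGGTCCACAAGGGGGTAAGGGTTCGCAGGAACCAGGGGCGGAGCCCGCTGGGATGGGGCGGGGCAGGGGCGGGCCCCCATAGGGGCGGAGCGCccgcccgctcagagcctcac
Notch2: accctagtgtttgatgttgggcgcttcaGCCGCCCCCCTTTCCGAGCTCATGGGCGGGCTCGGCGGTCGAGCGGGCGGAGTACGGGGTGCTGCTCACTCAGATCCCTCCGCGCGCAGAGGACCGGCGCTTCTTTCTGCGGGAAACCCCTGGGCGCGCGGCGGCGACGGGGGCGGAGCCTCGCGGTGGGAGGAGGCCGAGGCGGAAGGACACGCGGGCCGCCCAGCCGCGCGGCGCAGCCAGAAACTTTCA
Dll3: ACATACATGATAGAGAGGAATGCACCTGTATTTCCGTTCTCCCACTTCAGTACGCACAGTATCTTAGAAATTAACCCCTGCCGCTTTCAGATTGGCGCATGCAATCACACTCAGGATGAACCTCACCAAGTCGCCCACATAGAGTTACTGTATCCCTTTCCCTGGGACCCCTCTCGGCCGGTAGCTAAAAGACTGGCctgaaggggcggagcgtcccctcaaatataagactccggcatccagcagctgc

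The half-site of retinoic acid receptors was searched in the 250 bases before each start site as AGGTCA or AGTTCA or GGGTCA or GGTTCA, on both strands. It was found in 3 of the 10 promoters of the 9 genes (Dll1 has 2 start sites), and in 36.5% of 21263 promoters of all genes. The Dll3 half-site begins 134 bases before the start site on the strand opposite to the gene and lies under the peak shown above. Notch4 has one 239 bases before its start site and another, on the opposite strand, 150 bases before it, and no list has a peak on that promoter. Dll1 has one 109 bases before its inner start site, inside the tallest Dll1 peak of mutant replicate 3. That stretch, the minus strand of chr17:15375915-15375944, is shown because it joins a half-site to that peak, and here the capitals mark the half-site, while all 30 bases lie under the peak.
Dll1: tctgaccagggcAGGTCAcgggagagcacc
Direct repeats of the half-site with 1, 2 or 5 bases between its copies were found in none of the 10 promoters, and in 0.122%, 0.0752% and 0.0752% of all promoters. A match is only a match of letters, and a missing one says no more than that these letters are not in the window.

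Across the whole windows, every gene had at least 1 peak in control replicate 1 and in all 3 mutant libraries, while 5 of the 9 had one in control replicate 2 and 4 of the 9 in control replicate 3. Of all gene windows, 93.8%, 41.4% and 72.8% held a peak in control replicates 1 to 3, and 89.2%, 97.2% and 96.9% in mutant replicates 1 to 3. The 9 windows together held 48, 8 and 6 peaks in the control libraries and 24, 173 and 190 in the mutant libraries. From the density of each list 40.2, 5.52 and 14.1 peaks were expected there in the controls and 25.2, 191 and 239 in the mutants. The ratio of observed to expected was thus 1.19, 1.45 and 0.426 in the controls and 0.954, 0.906 and 0.796 in the mutants. It was above 1 in control replicates 1 and 2 alone. As each list has its own length, the count of each gene is given below beside its expectation and as log2 of observed over expected, with 0.5 added to both. The median of this value over all gene windows was 0.13, -0.94 and -0.21 in the controls and -0.07, -0.07 and -0.16 in the mutants. For the 9 genes it was 0.15, 0.52 and -1.81 in the controls and -0.13, -0.17 and -0.29 in the mutants.

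**Figure D1:**
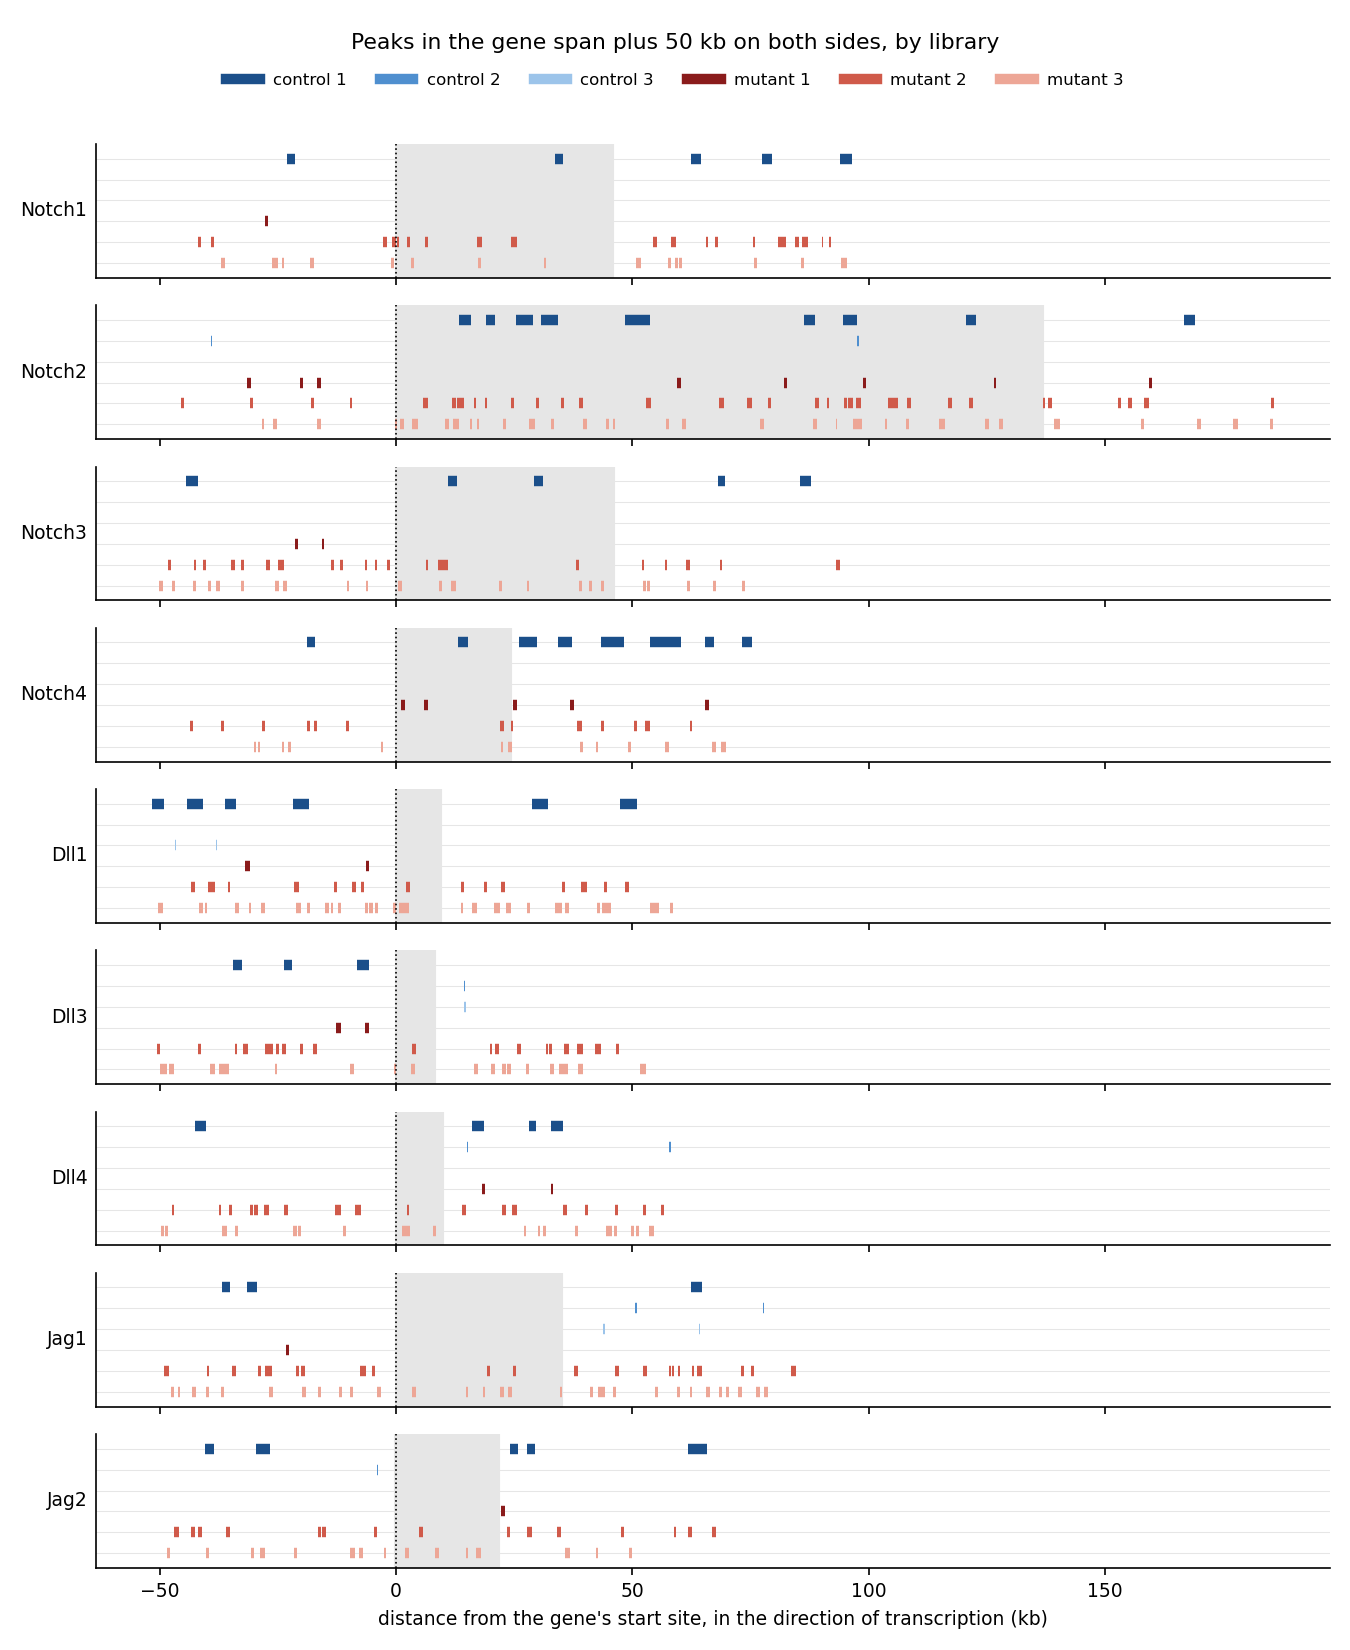
Peaks of the 6 libraries at each of the 9 genes, with distance from the start site in kb, in the direction of transcription, on the horizontal axis and 1 row per library. Grey marks the gene span. Mutant replicates 2 and 3, with 173 and 190 peaks, fill every window, while control replicates 2 and 3 place 8 and 6 peaks in all 9.

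Notch1, the receptor best known from radial glia, lies on the minus strand of chr2:26457902-26503822. Its window of 145.9 kb held 5, 0 and 0 peaks in control replicates 1 to 3, where 4.74, 0.651 and 1.66 were expected. In mutant replicates 1 to 3 it held 1, 19 and 15, where 2.97, 22.5 and 28.1 were expected. Only control replicate 1 reached its expected number. An empty window in control replicate 2 was common, since 52.9% of all windows of this width tiled over the chromosomes held no peak there, and 21.9% held none in control replicate 3. In mutant replicate 3, 91.0% of the tiled windows held at least as many peaks as Notch1. The tallest peak of mutant replicate 2, of 8 steps at chr2:26421392-26423021, lies in the neighbouring gene Sec16a. A peak of mutant replicate 3, 6 steps high, starts at 26504191 and overlaps the promoter peak of mutant replicate 2 without reaching the promoter itself. The log2 ratio was -1.08 ± 1.1 (SD, n = 3) in control and -0.78 ± 0.49 in mutant libraries, and the groups overlapped. The difference of 0.30 had a standard error of 0.81 and an adjusted p of 0.961 with limma.

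Notch2, a second receptor of cortical progenitors and the longest of the 9 genes, lies on the plus strand of chr3:98013538-98150367. Its window of 236.8 kb held 9, 2 and 0 peaks in the control libraries, against 7.69, 1.06 and 2.69 expected. The mutant libraries held 8, 32 and 33, against 4.82, 36.5 and 45.7 expected. The empty window of control replicate 3 was uncommon, as 10.2% of tiled windows of this width were empty there. The 56 bases at chr3:98111106-98111161, inside the gene, lie under peaks of control replicates 1 and 2 and of mutant replicates 2 and 3. Notch2 was the only one of the 9 genes with a base shared by at least 4 libraries, and 4.28% of all gene windows hold such a base. That share is over windows of all widths, while the Notch2 window is the widest of the 9. Of the 9 peaks of control replicate 1, 8 touch the gene span, and so do 4 of the 8 of mutant replicate 1. Over the 3 libraries the log2 ratio was -0.59 ± 1.82 (SD, n = 3) in control and 0.01 ± 0.6 in mutant, with overlapping groups. Mutant minus control was 0.60 with a standard error of 0.71 and an adjusted p of 0.902 in the limma fit.

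Notch3, a receptor known best from the muscle cells of blood vessels, lies on the minus strand of chr17:32120820-32166896. There were 5, 0 and 1 peaks in its control windows, against 4.74, 0.651 and 1.66 expected, and 2, 20 and 23 in its mutant windows, against 2.97, 22.5 and 28.2. Again only control replicate 1 reached its expected number. A peak of 6 steps in mutant replicate 3, at chr17:32165689-32166495, lies inside the gene near its start. The 450 bases at chr17:32209241-32209690 were covered by control replicate 1 and by mutant replicates 2 and 3. Notch3 had a log2 ratio of -0.55 ± 0.64 (SD, n = 3) in control and -0.31 ± 0.15 in mutant libraries. The groups overlapped, and the difference of 0.24 (standard error 0.67) had an adjusted p of 0.961 with limma.

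Notch4, a receptor found mainly in endothelial cells, lies on the plus strand of chr17:34564286-34588543 among closely packed genes. Its window held 8, 0 and 0 peaks in control libraries, against 4.04, 0.554 and 1.41 expected, and 5, 13 and 13 in mutant libraries, against 2.53, 19.2 and 24.0. The window was thus above expectation in control replicate 1 and mutant replicate 1 and below it in the other 4 libraries. In control replicate 1 8.06% of tiled windows held as many peaks or more, in mutant replicate 1 13.1%, and in mutant replicates 2 and 3 86.3% and 90.5%. Many of the peaks lie in the neighbours: those of 5 steps in mutant replicate 1 and 6 steps in mutant replicate 2, the tallest of these libraries, are both in Rnf5. The log2 ratio was -0.70 ± 1.46 (SD, n = 3) in control and -0.18 ± 0.92 in mutant libraries, and the groups overlapped. With limma the difference was 0.52 (standard error 0.73, adjusted p = 0.92).

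Dll1, the Delta-like ligand of newborn neurons and committed progenitors, lies on the minus strand of chr17:15367354-15376932 and has start sites at 15375823 and 15376932. Control windows held 6, 0 and 2 peaks, against 3.56, 0.489 and 1.25 expected, and mutant windows 2, 15 and 27, against 2.23, 16.9 and 21.1. In mutant replicate 3 it had the highest ratio of the 9 genes, and 27.3% of tiled windows reached its number. The peak of 8 steps in mutant replicate 3, at chr17:15374160-15376324, is 2165 bp wide and covers the inner start site, and 2.07% of the peaks of that list are at least as high. Mutant replicate 2 has a peak of 5 steps and 766 bp that starts at 15374087 and overlaps it. A further peak of mutant replicate 3, of 4 steps at chr17:15377032-15377583, lies on the outer promoter. Control replicate 1 has its tallest peak, of 16 steps, at chr17:15426008-15428643 in the neighbouring gene Fam120b, where both peaks of control replicate 3 also lie. The log2 ratio was 0.07 ± 0.92 (SD, n = 3) in control and 0.02 ± 0.29 in mutant libraries, with overlapping groups. The limma difference was -0.05 with a standard error of 0.56 (adjusted p = 0.992).

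Dll3, a ligand that stays mostly inside the cell and dampens Notch rather than activating it, lies on the minus strand of chr7:28293555-28301785. It held 3, 1 and 1 peaks in control libraries, against 3.52, 0.483 and 1.23 expected, and 2, 19 and 17 in mutant libraries, against 2.20, 16.7 and 20.9. Every library had a peak in this window, which among the 9 genes held for Dll3 and Jag1 only. The single peaks of control replicates 2 and 3, at chr7:28287102-28287466 and chr7:28287060-28287367, overlap each other in the neighbouring gene Selenov and are 2 steps high, the lowest height in their lists. The log2 ratio was 0.07 ± 0.47 (SD, n = 3) in control and -0.07 ± 0.24 in mutant libraries. The groups overlapped, and limma gave a difference of -0.14 (standard error 0.56, adjusted p = 0.973).

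Dll4, the ligand of sprouting endothelial cells, lies on the plus strand of chr2:119325784-119335666. Its window held 4, 2 and 0 peaks in control libraries, against 3.57, 0.490 and 1.25 expected, and 2, 18 and 18 in mutant libraries, against 2.23, 17 and 21.2. The 2 peaks of control replicate 2 were reached by 9.11% of tiled windows. They are 2 steps high, lie downstream of the gene, and one of them is in Ino80. Peaks inside the gene were found in mutant replicates 2 and 3 alone, all of 4 steps. Dll4 had a log2 ratio of -0.11 ± 1.59 (SD, n = 3) in control and -0.09 ± 0.16 in mutant libraries, with overlapping groups. The difference was 0.02 (standard error 0.64, adjusted p = 0.998, limma).

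Jag1, a Jagged ligand, lies on the minus strand of chr2:137081451-137116520. Control libraries held 3, 2 and 2 peaks, against 4.39, 0.602 and 1.54 expected, and mutant libraries 1, 22 and 29, against 2.75, 20.8 and 26.1. All 4 peaks of control replicates 2 and 3 lie downstream, in the neighbouring gene Slx4ip. The tallest peak of the 9 genes relative to its list is here: mutant replicate 3 has a peak of 12 steps and 806 bp at chr2:137158943-137159748, upstream of the gene and touching no protein-coding gene. Only 0.0409% of the peaks of that list are as high, and 1.73% of all gene windows hold a peak of that height in that library. It was singled out after its value was seen. Within their own lists, the tallest peaks of this window in the other libraries were reached by 39.0%, 28.4% and 28.2% of the peaks in control replicates 1 to 3 and by 96.9% and 1.49% in mutant replicates 1 and 2. The log2 ratio was 0.33 ± 0.83 (SD, n = 3) in control and -0.30 ± 0.71 in mutant libraries, and the groups overlapped. This was the largest difference of the 9, -0.63 with a standard error of 0.58, and its adjusted p was 0.88 with limma.

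Jag2, the other Jagged ligand, lies on the minus strand of chr12:112907803-112929812. Its control windows held 5, 1 and 0 peaks, against 3.96, 0.544 and 1.39 expected, and its mutant windows 1, 15 and 15, against 2.48, 18.8 and 23.5. All 3 mutant libraries lay below expectation, and 86.5% of tiled windows held as many peaks or more in mutant replicate 3. The peak of control replicate 2, of 2 steps at chr12:112933262-112933563, is the closest to a start site of the 9 genes in any control library. Jag2 had a log2 ratio of -0.36 ± 1.35 (SD, n = 3) in control and -0.65 ± 0.34 in mutant libraries, with overlapping groups. The limma difference of -0.28 had a standard error of 0.72 and an adjusted p of 0.959.

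**Figure D2:**
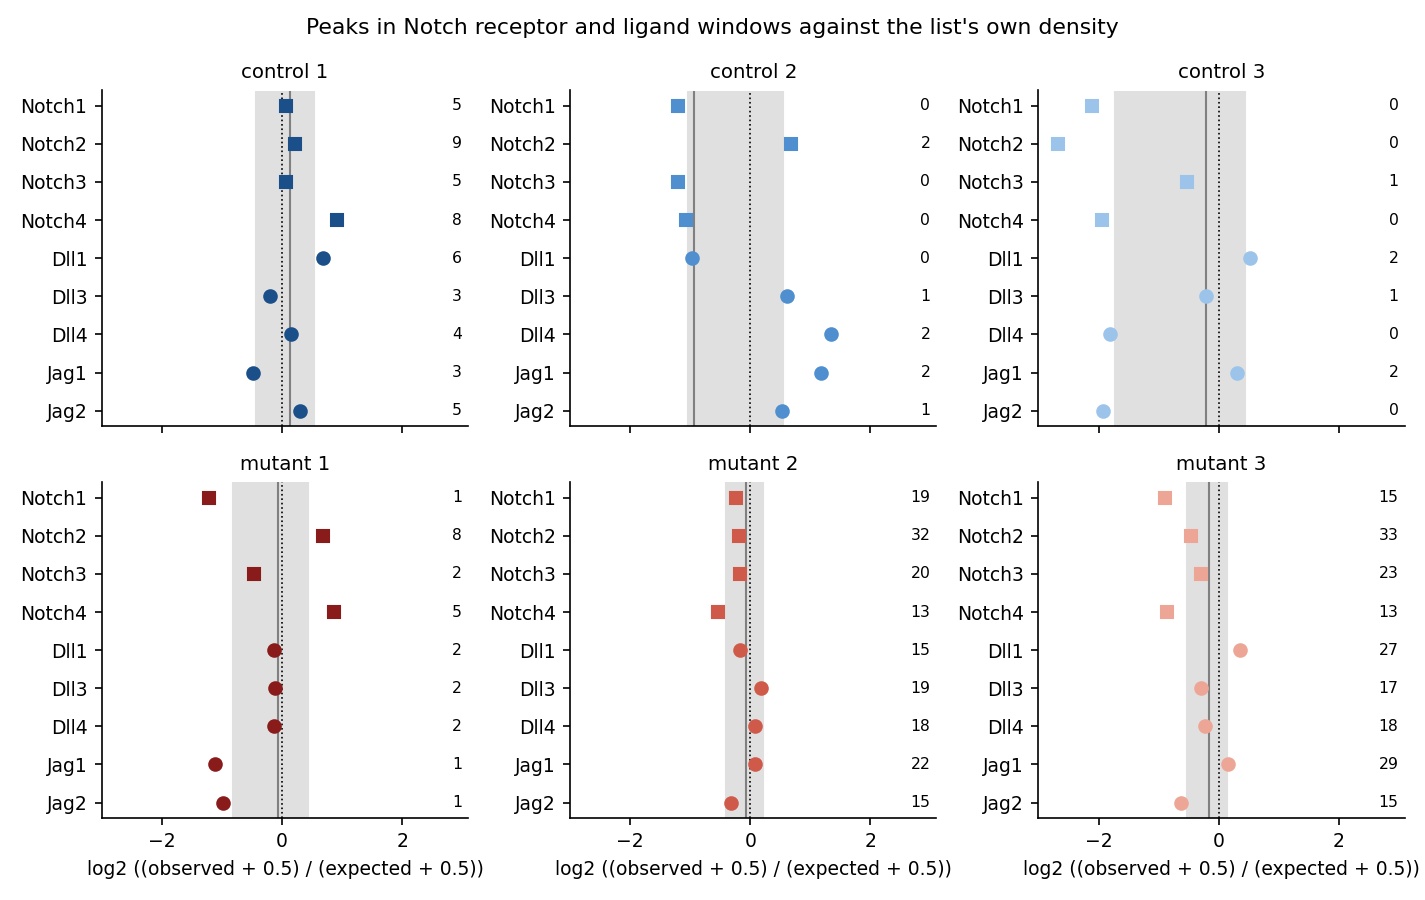
The log2 ratio of observed to expected peaks, each with 0.5 added, for the 9 genes in each library, with receptors as squares, ligands as circles and the peak count at the right. The grey line and band are the median and quartiles over all gene windows, and the dotted line is 0. The genes spread widely in control replicates 2 and 3, where a window holds 0 to 2 peaks, and narrowly in mutant replicates 2 and 3.

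The tallest peak of a window was set beside that of all gene windows within each list. Over the 9 genes its median was 13, 2 and 0 steps in control libraries and 4, 7 and 7 steps in mutant libraries, with 0 where a window had no peak. Over all gene windows the medians were 13, 0 and 2 steps in the controls and 4, 7 and 7 in the mutants. The medians were therefore equal in control replicate 1 and in the 3 mutant libraries, but not in control replicates 2 and 3. Peaks at the 9 genes had median widths close to those of their lists: 2328, 333.5 and 234.5 bp in the controls and 692, 742 and 710.5 bp in the mutants.

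**Figure D3:**
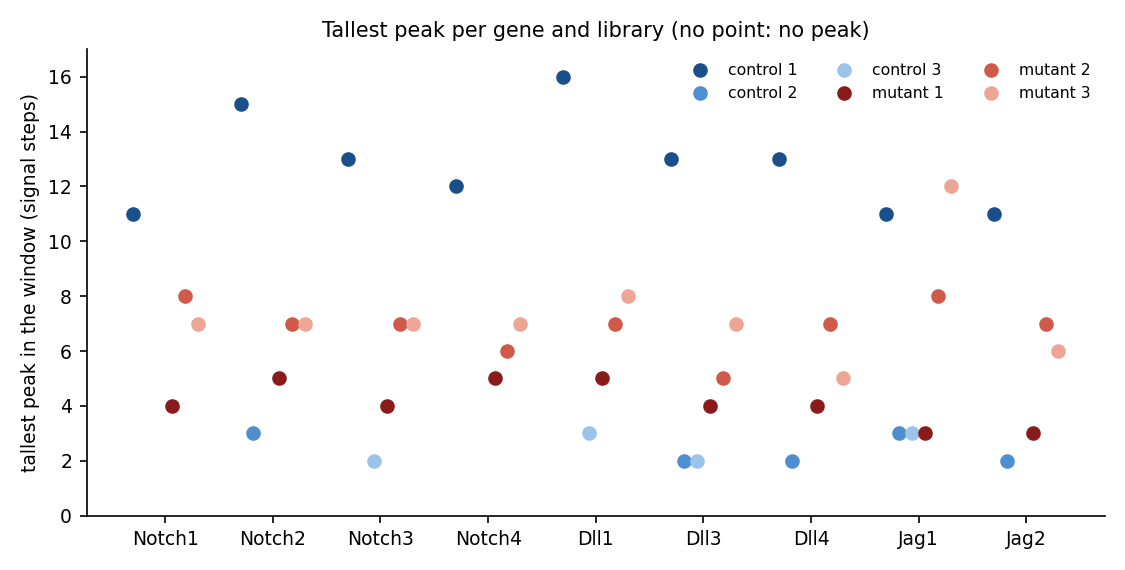
Height of the tallest peak in each gene's window, in steps of the library, with 1 colour per library. A missing point is a window with no peak. The peak of 12 steps at Jag1 in mutant replicate 3 stands above the other genes of that library, which reach 5 to 8 steps.

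The peaks closest to a start site were nearer in the longest lists. The median distance over the 9 genes was 16120, 50470 and 56380 bp in control replicates 1 to 3 and 16000, 3380 and 395 bp in mutant replicates 1 to 3. Over all genes it was 6247, 85980 and 32400 bp and 16080, 1662 and 594.5 bp. The 9 genes were thus farther from a peak than the median gene in control replicates 1 and 3 and mutant replicate 2, and nearer in the other 3 libraries.

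Receptors and ligands were then set side by side within each library. Receptors had a median log2 ratio of 0.14, -1.14 and -2.02 in the controls and 0.10, -0.21 and -0.66 in the mutants. For ligands it was 0.15, 0.61 and -0.21 in the controls and -0.13, 0.08 and -0.23 in the mutants. Receptors minus ligands was 0, -1.75 and -1.82 in the control libraries, a mean of -1.19 ± 1.03 (SD, n = 3), and 0.23, -0.29 and -0.43 in the mutant libraries, a mean of -0.16 ± 0.35. The low receptor values came from control replicates 2 and 3. These held 2 and 1 peaks over all 4 receptor windows, against 6 and 5 over the ligand windows. Both receptor medians there lie between the values of windows without a peak, which list density, window width and pseudocount alone set. The control mean depended on the setting: it was 0.22 with a flank of 5 kb, -0.23 with 100 kb and -0.41 in equal-length lists. A pseudocount of 0.1 gave -2.5 and one of 1 gave -0.76. No test was made of this difference, since the genes are not replicates.

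**Figure D4:**
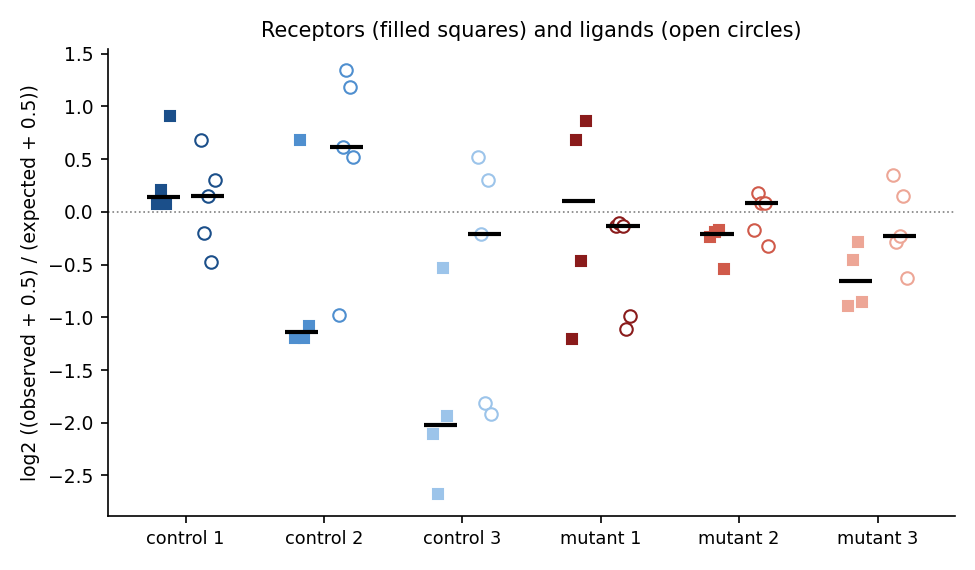
The log2 ratio of observed to expected peaks, each with 0.5 added, for receptors (filled squares) and ligands (open circles) in each library, with a bar at the median of each class. The medians lie apart in control replicates 2 and 3, at -1.14 and -2.02 for receptors against 0.61 and -0.21 for ligands. Those 2 receptor medians come from windows without a peak. In the other 4 libraries the medians lie no more than 0.43 apart.

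Inside the genes the 2 classes also differ in length, so counts there are given with their expectation. The 4 receptor genes held 12, 1 and 0 peaks in the controls and 6, 31 and 37 in the mutants, against 8.22, 1.13 and 2.88 and 5.15, 39.0 and 48.8 expected. The 5 ligand genes held no peak in the 3 control libraries and mutant replicate 1, where 2.75, 0.378, 0.964 and 1.72 were expected, and 6 and 14 in mutant replicates 2 and 3, where 13.1 and 16.3 were expected. Ligand peaks in the shorter lists thus all lie in the flanks. The depth behind the lists is unknown, so an empty gene there is not shown to be unbound.

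At no receptor or ligand did the difference between mutant and control libraries pass the test. With limma over all 21887 genes, 0 of the 9 passed an adjusted p of 0.05, and 0 had an unadjusted p below 0.05. Over all genes 0 passed (0% higher and 0% lower in mutant), the smallest adjusted p was 0.0813, and 1190 genes, 5.44%, had an unadjusted p below 0.05. The median difference over the 9 genes was 0.02, beside 0.07 over all genes. The 95% intervals of the differences were wide: from -1.33 to 1.94 for Notch1, from -0.83 to 2.03 for Notch2 and from -1.79 to 0.54 for Jag1. They leave room for changes of more than 2-fold in either direction at Notch1 and in 1 direction at Notch2 and Jag1. The intervals of Notch3, Dll1, Dll4 and Jag2 also leave such room in either direction, and those of Notch4 and Dll3 in 1 direction. Without control replicate 1, 181 of all genes passed the fit but still 0 of the 9. The direction changed with the setting: 4 of 4 receptors had a higher mean in mutant libraries, as did 54.3% of all genes. The control means rest in part on windows without a peak, whose values list density, window width and pseudocount alone set. These were Notch1 and Notch4 in control replicates 2 and 3, Notch2 in control replicate 3 and Notch3 in control replicate 2. With a pseudocount of 0.1 the differences of Notch1 to Notch4 were 1.45, 1.26, 0.83 and 1.73. With 1 they were -0.01, 0.38, 0.07 and 0.16. Only 1 of 4 receptors was higher without control replicate 3, with a flank of 5 or 100 kb or by covered length. With control replicate 1 alone as the controls, chosen after seeing the data, it was 0 of 4, which says nothing about stability. In equal-length lists Notch1 alone was higher (0.53), by 1 peak in mutant replicate 2 and none elsewhere. Notch2 and Notch4 were lower (-1.02 and -0.53), and Notch3 had no peak in any list. There Notch2 held 2, 2 and 0 peaks in the controls and 1, 0 and 0 in the mutants. Notch4 held 4, 0 and 0 against 1, 0 and 0, so these signs rest on few peaks. With a pseudocount of 1 or without control replicate 2, 3 of 4 receptors were higher. Of the ligands, 1 of 5 had a higher mean, and between 0 and 3 of 5 did over the other settings.

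No other gene of the pathway passed the fit either. The 34 genes were those of the nuclear complex, ligases, proteases, sugar transferases, regulators, targets and non-canonical ligands. In lists of equal length, where most gene windows were empty in each library, 1 of them passed. In the reported fit 0 passed the adjusted p and 1 had an unadjusted p below 0.05. Their median difference was 0.17, beside 0.07 over all genes. The 4 of smallest p were Numbl, Adam10, Maml2 and Neurl1a. Numbl, an adaptor that dampens Notch, held 6, 1 and 1 peaks in the controls and 0, 17 and 12 in the mutants, a difference of -1.47 (standard error 0.72) with an adjusted p of 0.706. Adam10, the protease that makes the first cut of an activated receptor, held 6, 0 and 1 against 5, 34 and 49, a difference of 1.07 (standard error 0.63, adjusted p = 0.761). Maml2, a Mastermind coactivator, held 18, 0 and 3 against 9, 85 and 95, a difference of 1.02 (standard error 0.73, adjusted p = 0.828). Neurl1a, a ubiquitin ligase of ligands, held 9, 1 and 2 against 3, 21 and 18, a difference of -0.78 (standard error 0.59, adjusted p = 0.841).

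Among all other genes, those whose values over the 6 libraries lay nearest to the median of the 9 were Nanp, Lrrc59 and Ddx24. Their distances were 0.10, 0.15 and 0.17 on the log2 scale, taken over the 6 libraries together. The median of the 9 genes was 0.15, 0.52 and -1.81 in the controls and -0.13, -0.17 and -0.29 in the mutants. Nanp had 0.15, 0.60 and -1.81 and then -0.13, -0.17 and -0.23.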

How the data were processed

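Groups and replicates were taken from the titles, and digitonin was used at 0.05% per the labels' protocols. Each library has a peak list of its own, deposited by the authors, with a total and a maximum signal per peak whose scaling no source states. SEACR and the build mm10 stand in the submitters' processing notes. All maximum signals below 100 steps were whole multiples of a step within 0.01. Peaks overlapping a gene span with 50 kb by 1 bp were counted and divided by the list's density times the width. The log2 ratio was tested with limma 3.58.1 (R 4.3.3), with a trend and Benjamini-Hochberg adjustment over 21887 genes, and the script was tested on simulated data. Windows of neighbouring genes overlap, so genes are not independent. In place of random windows, all consecutive windows of the same width (11228 to 24579 per gene) were used. Genes, start sites and promoters came from RefSeq GRCm38.p6, the assembly of mm10. Members, lists and tests were chosen with earlier results of these data known. Named beside the members were Foxc1, Rara, the 4 pathway genes of smallest p if none passed, the 3 nearest profiles, and neighbours holding a described peak. Alternatives were other flanks, pseudocounts, peak lists, overlap, covered length, filter, centring, a block and left-out libraries.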

Additional observations from a re-analysis of the deposited data

How the results depend on the processing

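None of the 9 genes passed the adjusted p of the limma fit under any of 18 settings. One of these has a control arm of 1 library, which is assumed to vary like the mutant libraries, and another keeps only peaks of at least 4 steps, where control replicates 2 and 3 have no peak at any of the 9 genes and their values are set by list density and pseudocount alone. Neither setting says anything about stability, and the smallest unadjusted p, 0.0324 at Jag2, comes from the second. Of all genes 0 passed in the reported fit, 4 with a flank of 5 kb, 6 with a pseudocount of 0.1, 234 in equal-length lists of 11869 peaks, and 0 to 181 when 1 library was left out: 181 without control replicate 1, 15 without mutant replicate 1, 1 without mutant replicate 2, 2 without mutant replicate 3. Of the pathway genes, 1 passed in equal-length lists, Maml2 (1.83, adjusted p = 0.0491). In each of those lists only 34.5% to 48.0% of gene windows held a peak. Notch3, empty in all of them, had a standard error of 0 there. Passes under this setting are therefore not read as differences. Deviations of same-numbered libraries correlated at -0.16, -0.09 and -0.04, and those of differently numbered ones at -0.12 to 0.15. Whether same-numbered libraries were handled as pairs cannot be told from such values. With the replicate number as a block 7 genes passed and 0 of the 9. Receptors minus ligands in control libraries, -1.19 as reported, was 0.22 with a flank of 5 kb, -0.23 with 100 kb, -2.5 with a pseudocount of 0.1, -0.76 with 1, -0.41 in equal-length lists, -0.53 by covered length, -0.03 with peaks of at least 4 steps (set as said above), and -1.78 to -0.88 when 1 library was left out. In mutant libraries, -0.16 as reported, it was -0.04 and 0.01 with flanks of 5 and 100 kb, -0.96 in equal-length lists, -0.24 by covered length, -0.36 without mutant replicate 1, -0.10 without mutant replicate 2 and -0.03 without mutant replicate 3. No block applies to this value, which comes from no test.

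The sign of the mutant minus control difference turned in 52 of 162 values, and the cause was not tested. Both numbers include control replicate 1 alone and peaks of at least 4 steps, which say nothing about stability. With a flank of 5 kb it was -0.21 for Notch1, -0.40 for Notch3, -0.03 for Notch4, 0.32 for Dll1, -0.06 for Dll4 and 0.32 for Jag1. With 100 kb it was -0.23 for Notch1, -0.34 for Notch2, -0.17 for Notch4, 0.22 for Dll1, -0.65 for Dll4 and 0.51 for Jag2. A pseudocount of 0.1 gave 0.40 for Dll1 and 0.20 for Jag2, and one of 1 gave -0.01 for Notch1 and -0.07 for Dll4. Equal-length lists gave -1.02 for Notch2, -0.53 for Notch4, 0.77 for Dll1, 0.77 for Dll3, -0.25 for Dll4 and 0.28 for Jag1. Most gene windows were empty in each of those lists, so these signs rest on few peaks. Peaks of at least 4 steps gave -0.63 for Notch1, -0.32 for Notch3 and -0.62 for Notch4. Covered length gave -0.31 for Notch1, -0.17 for Notch3, -0.31 for Notch4, 0.20 for Dll3 and -0.26 for Dll4. Counting peak centres gave 0.03 for Dll1 and median centring -0.22 for Dll4, where the median over all genes moved from 0.07 to -0.16 (0.46 with a pseudocount of 0.1). Control replicate 1 alone against the mutant libraries, chosen after seeing the data, gave -0.85 for Notch1, -0.20 for Notch2, -0.38 for Notch3, -1.09 for Notch4, 0.13 for Dll3, -0.24 for Dll4 and 0.19 for Jag1, and -0.27 over all genes. Leaving out 1 library gave -0.21 to 0.88 for Notch1, -0.44 to 1.24 for Notch2, -0.08 to 0.56 for Notch3, -0.09 to 1.33 for Notch4, -0.58 to 0.25 for Dll1, -0.28 to 0.13 for Dll3, -0.83 to 0.74 for Dll4 and -1.06 to 0.16 for Jag2. The receptor values turned without control replicate 3 (Notch1, Notch2, Notch4) or control replicate 2 (Notch3).

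Read depth is unknown, so windows without a peak in the short lists are not shown to be unbound.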
